A study of Mus musculus with 6 samples.

Results

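The genes described here encode the subunits of the NADPH oxidase: Nox1, Nox4, Cybb, Cyba, Ncf1, Ncf4, Rac1 and Rac2. They were taken by name, as every probe on the array that was not a control and that carried 1 of these 8 gene names, which gave 12 probes among 36163 names on the array. Their transcripts were compared between sham and tail-suspended mouse hearts. Tail-suspension lifts the hindlimbs off the floor by the tail and is used to mimic microgravity. All 6 samples were total RNA of cardiac muscle from male C57BL/6 mice. The 3 tail-suspension mice were suspended for 28 days from an age of 10 weeks, and the 3 sham mice were kept in the same room under the same feeding without suspension. The labels also list an age of 11 weeks for every mouse, which leaves the age at sampling uncertain. The labels list no transgene and no drug for either group. The labels call the samples of a group replicates without further detail, so p-values measure the spread between these samples only.

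The NADPH oxidase moves electrons from NADPH across a membrane to oxygen and so makes superoxide or hydrogen peroxide. Each complex is built around a catalytic NOX protein. NOX2, encoded by Cybb, and NOX1 stay silent until cytosolic subunits and a Rac GTPase join them at the membrane, whereas NOX4 works without the cytosolic subunits. NOX2 is the oxidase of neutrophils and macrophages and is also found in cardiomyocytes, endothelial cells and fibroblasts. NOX4 is the other main form of the heart. The array measures transcripts, whereas the assembly of the oxidase depends on phosphorylation of p47phox, the product of Ncf1, which these data do not hold.

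The arrays were Agilent 1-colour arrays, on which each probe is a spot of 60 bases and the reading is a fluorescence intensity after background correction. All 6 shared 1 slide and 1 scan. One row of the slide held every sham array beside tail-suspension replicate 1, while its other row held tail-suspension replicates 2 and 3. Between 50.9% and 53.4% of the probes of an array were well above background. Levels are given on the log2 scale relative to the 75th percentile of the array, an intensity between 301.6 and 376.3, and differences are tail-suspension minus sham on that scale. All 10 cardiomyocyte genes on a marker list were well above background on all 6 arrays. The number of arrays limits the precision.

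Both probes of Nox4 and both probes of Nox1 are shown because their readings decide what can be said of these oxidases. Coordinates are on mm9, and the array files do not say which exon or untranslated region a probe lies in. The Nox4 probe that starts at transcript base 1077 lies on the plus strand at chr7:94472458-94487478, so that its 60 bases come from pieces 15021 bp apart at the ends. The Nox4 probe that starts at base 3411 lies on the plus strand, and its first 30 bases are at chr7:94547025-94547054. The Nox1 probes that start at bases 1340 and 1577 lie on the minus strand at chrX:130627582-130627641 and chrX:130621740-130621799.
Nox4, start 1077: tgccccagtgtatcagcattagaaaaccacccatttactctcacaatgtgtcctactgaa
Nox4, start 3411, first 30 bases: ccttgcctaatctaaactccagtgcatgtt
Nox1, start 1340: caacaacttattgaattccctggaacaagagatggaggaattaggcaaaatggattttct
Nox1, start 1577: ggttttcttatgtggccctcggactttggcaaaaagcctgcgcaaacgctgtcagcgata
The first 30 bases of the probes of Cybb (chrX:9013246-9013275), Ncf1 (chr5:134696410-134696439) and Rac2 (chr15:78391482-78391511), all on the minus strand, are shown as well. They are the members made by white blood cells that were higher at an unadjusted p under 0.05 (limma), which Ncf4 was not.
Cybb, start 3854, first 30 bases: tttccttgtctttatttttcttgcagacaa
Ncf1, start 2411, first 30 bases: tttaaaaagagaggatatgcctccataaga
Rac2, start 1123, first 30 bases: tcagaaaagcacagaacaaatctacttcag

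Of the 12 probes, 9 were well above background on all 6 arrays and were tested, and they covered 7 of the 8 genes. Tail-suspended hearts had a higher Nox4 signal than sham hearts, and no other subunit passed an adjusted p of 0.05 in either direction (limma, Benjamini-Hochberg adjustment over 28032 probes). Among all tested probes, 10.8% passed as higher and 9.57% as lower, so that 1 of 9 is close to the background share. At an unadjusted p under 0.05, 4 of the 9 probes were higher (Nox4, Ncf1, Cybb and Rac2) and 0 were lower, against 19.3% of all tested probes higher. The 3 tail-suspension arrays lay entirely above the 3 sham arrays at 5 of the 9 probes and entirely below them at 0, against 22.1% and 21.9% of all tested probes. The fitted difference was above 0 at 7 probes and below 0 at 2, with a median of 0.19 beside -0.0049 over all tested probes.

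**Figure D1:**
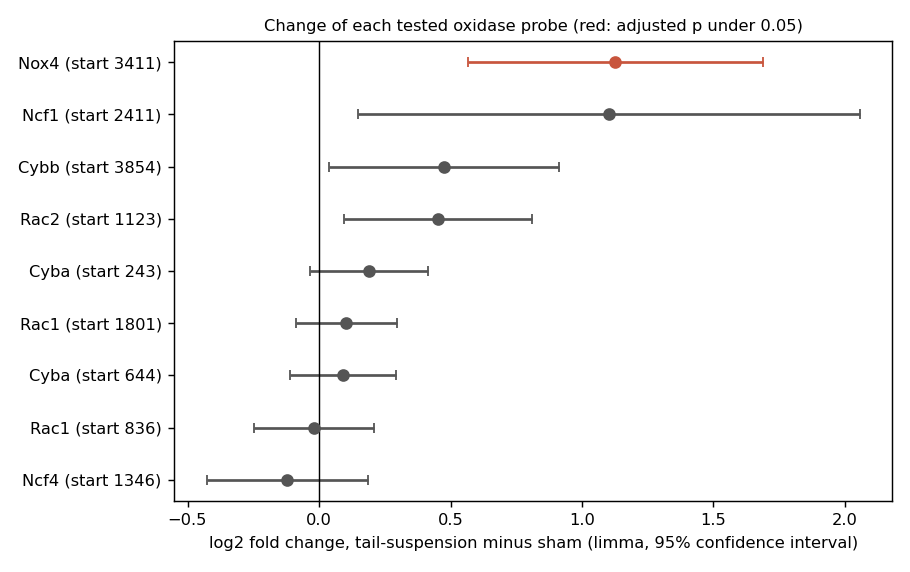
Fitted difference (tail-suspension minus sham, log2 scale) of each tested oxidase probe, with its 95% confidence interval from limma. Nox4 is the probe drawn in red, with an adjusted p of 0.0228 by limma; the intervals of Ncf1, Cybb and Rac2 also lie above 0 but these probes did not pass after adjustment.

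Among the catalytic subunits, Nox4 makes mostly hydrogen peroxide and is thought to be set largely by how much of it is made. The intensity of the Nox4 probe at base 3411 was 25.4, 26.7 and 27.5 in sham hearts and 54.5, 54.3 and 101.6 in tail-suspended hearts. Every tail-suspension array read higher than every sham array, and tail-suspension replicate 3 stood above the other two. The level rose from -3.57 ± 0.11 (SD, n = 3) to -2.44 ± 0.49 (SD, n = 3), a difference of 1.13 with a standard error of 0.24 or 2.18-fold (95% confidence interval 1.48 to 3.22, adjusted p = 0.0228 by limma). Of all tested probes, 2.49% had a larger rise, a share that does not count probes that fell. These are dim spots. Before background correction the Nox4 spot read 62.8 to 67.6 in sham and 94.0 to 139.0 in tail-suspended hearts, on a local background of 23 to 26, and the dimmest probes called well above background had corrected intensities of 14.0 to 19.7.

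The call for Nox4 needed all 3 sham arrays. It ended without sham replicate 1 (adjusted p = 0.0709 by limma), without sham replicate 2 (0.0787) and without sham replicate 3 (0.0501), and it held without any one of the tail-suspension arrays (0.0183 to 0.0454). With the slide row as a block, which compares tail-suspension replicate 1 alone with the sham arrays, the difference was 0.92 (adjusted p = 0.207 by limma). Under normexp background correction, which adds an offset of 50 to every spot, it was 0.29 (adjusted p = 0.192 by limma).

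**Figure D2:**
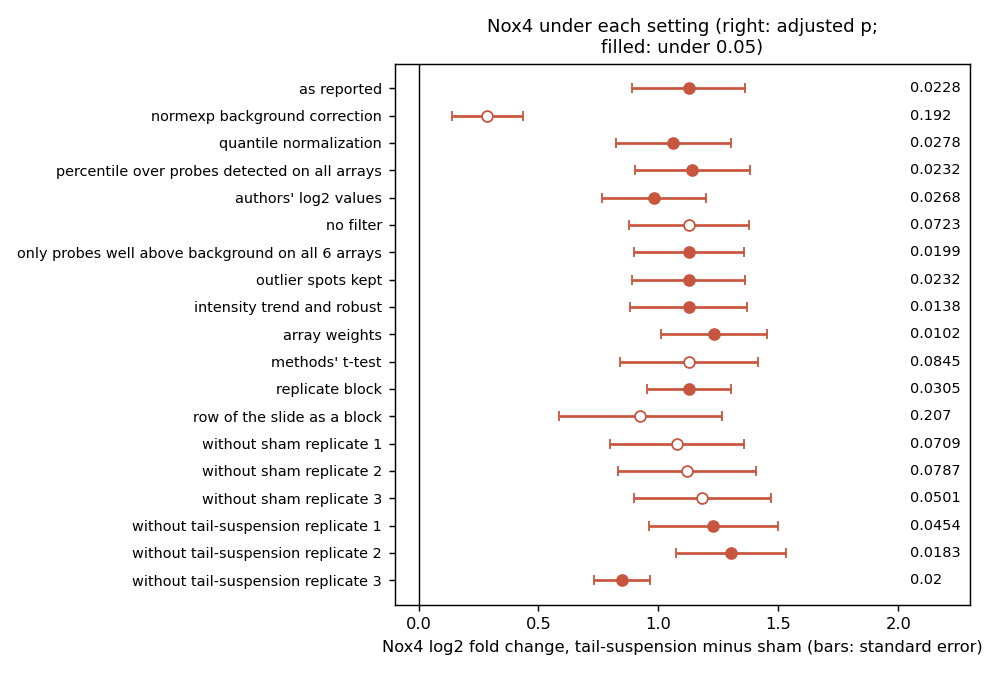
Difference of the Nox4 probe at base 3411 (tail-suspension minus sham, log2 scale, bars: standard error) as reported and under 18 other settings, with the adjusted p at the right. All points lie above 0, from 0.29 under normexp to 1.30 without tail-suspension replicate 2, and the 7 hollow points did not pass 0.05.

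The Nox4 probe at base 1077 gave no second reading of this difference. It was well above background on 0 arrays, with intensities of 6.67, 8.44 and 3.15 in sham and 7.59, 3.90 and 9.53 in tail-suspended hearts. The groups overlapped throughout. The rise of Nox4 therefore rests on a single probe with a single spot on each array.

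Cybb encodes the NOX2 protein itself and was read by 1 probe. Its intensity was 46.3, 40.4 and 38.4 in sham and 64.9, 53.2 and 86.9 in tail-suspended hearts. Relative to the percentile of each array, tail-suspension replicates 1 and 3 were above all sham arrays and replicate 2 was among them. The difference was 0.48 with a standard error of 0.18 or 1.39-fold (95% confidence interval 1.03 to 1.88, adjusted p = 0.108 by limma), and an exact permutation test of the 3 arrays against 3 gave p = 0.2, where 0.1 is the smallest possible. Without tail-suspension replicate 2 the difference was 0.67 and passed (adjusted p = 0.0219 by limma), and without tail-suspension replicate 3 it was 0.31 (adjusted p = 0.248 by limma).

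Nox1, the form first known from colon, could not be followed. The probe at base 1340 was well above background on 0 arrays, with intensities of 2.92 to 18.3. The probe at base 1577 was well above background on sham replicate 1 (20.4) and tail-suspension replicate 3 (21.5) only, and read 8.19 to 14.0 on the other 4 arrays. Neither probe was tested.

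**Figure D3:**
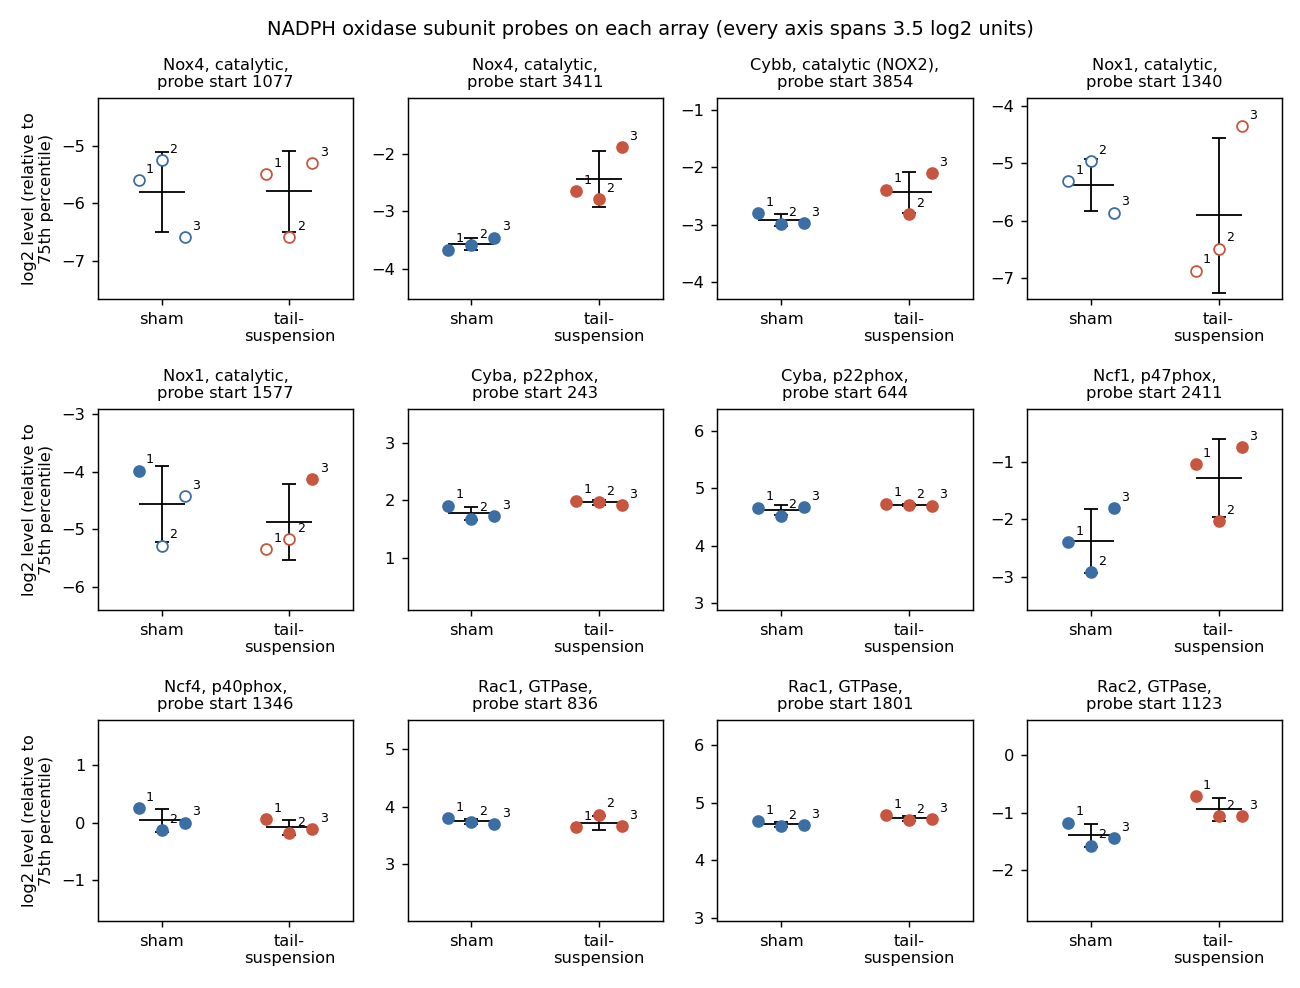
Level of each of the 12 oxidase probes on each array (log2 relative to the 75th percentile of the array, numbers are replicates, bars are the mean and SD of 3 arrays), with open points where the probe was not well above background. Nox4 at base 3411 and Rac2 have tail-suspension points above all sham points, Ncf1 and Cybb overlap through tail-suspension replicate 2, and the 2 Cyba and 2 Rac1 panels are nearly flat.

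Cyba encodes p22phox, the membrane partner that both NOX2 and NOX4 need. Its probe at base 243 read 1203, 1021 and 997.5 in sham and 1353, 1474 and 1417 in tail-suspended hearts. Its probe at base 644 read 8155, 7344 and 7710 in sham and 9056, 9839 and 9735 in tail-suspended hearts. On both probes every tail-suspension array lay above every sham array, by little. The differences were 0.19 with a standard error of 0.093 at base 243 (adjusted p = 0.184 by limma) and 0.092 with a standard error of 0.085 at base 644 (adjusted p = 0.461 by limma). The 95% confidence intervals ran from 0.98-fold to 1.33-fold and from 0.93-fold to 1.23-fold.

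Ncf1 encodes p47phox, the cytosolic organiser whose phosphorylation brings the other cytosolic subunits to NOX2. Its intensity was 61.1, 42.2 and 86.3 in sham and 165.3, 91.8 and 224.6 in tail-suspended hearts. Tail-suspension replicates 1 and 3 were clear of the sham arrays, whereas replicate 2, scaled to its own array, lay below sham replicate 3. The difference of 1.10 was nearly as large as that of Nox4, but its standard error of 0.40 was larger (2.15-fold, 95% confidence interval 1.11 to 4.16, adjusted p = 0.0947 by limma, exact permutation p = 0.2). Without tail-suspension replicate 2 it was 1.48 and passed (adjusted p = 0.0309 by limma), and it was smallest without sham replicate 2 (0.83, adjusted p = 0.247 by limma).

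Ncf4 encodes p40phox, a cytosolic subunit that keeps the complex active at internal membranes. Its intensity was 384.1, 292.2 and 303.0 in sham and 356.1, 332.1 and 347.2 in tail-suspended hearts. The groups overlapped, with a difference of -0.12 and a standard error of 0.13 (adjusted p = 0.524 by limma). The 95% confidence interval was 0.74-fold to 1.14-fold. With the slide row as a block the sign turned (0.019).

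Rac GTPases complete the NOX2 complex, Rac2 in blood cells and Rac1 in most other cells. Rac2 was read by 1 probe spotted 10 times on each array, with a mean intensity of 143.6, 107.7 and 111.6 in sham and 209.1, 180.6 and 180.9 in tail-suspended hearts. All 3 tail-suspension arrays lay above all sham arrays, and the SD between the 10 spots of an array was 0.050 to 0.12 on the log2 scale. The difference was 0.45 with a standard error of 0.15 or 1.37-fold (95% confidence interval 1.07 to 1.75), which did not pass (adjusted p = 0.0751 by limma). The spread between arrays was larger than that between spots, with an SD of 0.21 in sham and 0.20 in tail-suspension.

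Rac1, which has many roles beyond the oxidase, was read by 2 probes. The probe at base 1801 read 8238, 7689 and 7373 in sham and 9368, 9771 and 9809 in tail-suspended hearts, a difference of 0.10 with a standard error of 0.080 (adjusted p = 0.386 by limma). The probe at base 836 read 4481, 4269 and 3918 in sham and 4271, 5489 and 4768 in tail-suspended hearts, a difference of -0.019 with a standard error of 0.095 (adjusted p = 0.902 by limma). On the first probe every tail-suspension array lay above every sham array. On the second, scaled to each array, tail-suspension replicate 2 lay above all sham arrays and replicates 1 and 3 below them. The 95% confidence intervals were 0.94-fold to 1.23-fold and 0.84-fold to 1.16-fold, narrower than those of the dim probes of Nox4 and Ncf1.

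The change of Nox4 was also set against that of each other subunit on the same arrays, using the brightest tested probe of each gene. It exceeded the change of Cybb by 0.65, Rac2 by 0.67, Rac1 by 1.02, Cyba by 1.03 and Ncf4 by 1.25 on the log2 scale. In each of these 5 pairs the 3 tail-suspension arrays were apart from the 3 sham arrays, which gives p = 0.1 in a two-sided exact permutation test, the smallest possible, and 0.12 after Benjamini-Hochberg adjustment over 6 pairs. The changes of Nox4 and Ncf1 differed by 0.025 (exact permutation p = 0.9). The pairs share the Nox4 values. Nox4 had the largest fitted difference of the tested subunits, so a gap above 0 in every pair was fixed in advance. These comparisons are therefore no further support for a change of Nox4.

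Because NOX2 and its cytosolic subunits are made by white blood cells, markers of these cells are given for the same arrays. Over all genes read from their brightest tested probe, 10.5% passed as higher and 9.8% as lower. In whole tissue, fewer cells of a type and less RNA per cell cannot be told apart. On a list of 12 macrophage genes, 11 were tested, and 10 had a difference above 0 with a median of 0.62. Cd68 had no tested probe. Only Mertk, a receptor for dying cells (0.72, adjusted p = 0.0213 by limma), and Cd163, a scavenger receptor, passed. Cd163 was well above background on no sham array and at least 3.39-fold higher in tail-suspension (adjusted p = 0.0240 by limma). Cd163 entered the test through its tail-suspension arrays alone, so this p-value is not independent support for a rise. The macrophage list stood at 0.71, 0.23 and 0.96 above its sham mean on tail-suspension replicates 1, 2 and 3 (median gene), beside 0.23, -0.17 and -0.035 on the sham arrays. Its summed level, in units of the 75th percentile, ranged from 36.7 to 49.0 in sham and from 43.3 to 68.9 in tail-suspension, with 39.8% to 51.1% of it from Csf1r. The call for Mertk ended without sham replicate 1 (adjusted p = 0.0673), sham replicate 2 (0.0805), tail-suspension replicate 1 (0.0628) or tail-suspension replicate 3 (0.0697), and that of Cd163 without tail-suspension replicate 1 (0.0676) or 3 (0.0764), all by limma.

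Of 10 genes shared by most white blood cells, 9 were tested, 3 rose (Cd53, Fcer1g and Ptprc, the gene of the surface protein CD45) and 0 fell, with a median of 0.34. A dimmer probe of Itgam rose too, by 0.72 (adjusted p = 0.0245 by limma), whereas its brightest probe differed by -0.19 and the other one by 0.15, neither past the threshold. Their median gene stood at 0.44, 0.14 and 0.55 on the tail-suspension arrays and between -0.17 and 0.14 on the sham arrays, and their summed level was 49.2 to 58.8 in sham and 49.4 to 61.8 in tail-suspension. Itgam made up 55.5% to 75.1% of that sum. None of the 3 calls held with each array left out. Ptprc rose by 0.47 (adjusted p = 0.0425 by limma), and its adjusted p reached 0.131 without sham replicate 2. On both lists, as for Nox4, Cybb and Ncf1, tail-suspension replicate 3 was highest, replicate 1 next and replicate 2 lowest. This order was not particular to white blood cell genes. The fibroblast list had it too, with its median gene at -0.34, -0.67 and -0.12 on tail-suspension replicates 1, 2 and 3. The share of all tested probes with this order was not counted. For Rac2 the order was replicate 1, then 3 and 2 close together. Ncf4, another cytosolic subunit, had the order 1, 3 and 2 and a difference of -0.12 (adjusted p = 0.524 by limma).

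Of 12 neutrophil genes, 7 were tested and 4 rose: S100a8, S100a9, Retnlg and Ltf. S100a8 and S100a9, the calprotectin subunits, were 4.80 and 4.62 higher (adjusted p = 0.00705 and 0.00661 by limma). Retnlg and Ltf were well above background on no sham array and were at least 12.3-fold and 6.26-fold higher. Both entered the test through their tail-suspension arrays alone, so their calls are not independent support for a rise. Camp, Csf3r and Elane differed by 1.97, 0.30 and -0.30 and did not pass, and Ly6g had no probe under that name. The median neutrophil gene stood at 6.00, 3.05 and 4.46 on the tail-suspension arrays, where the order differed from that of Cybb. The list's summed level was 144.2 to 172.1 in sham and 207.8 to 237.4 in tail-suspension, but Csf3r alone made up 78.1% to 99.0% of it. Without Csf3r the sum was 1.72 to 2.15 in sham and 9.02 to 52.0 in tail-suspension. Of 8 lymphocyte genes, 5 were tested, 0 rose and 2 fell, with a median of -0.49. The part of these cells in the values of Nox4, Cybb, Ncf1, Rac2 and Ncf4, which did not rise, was not tested.

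**Figure D4:**
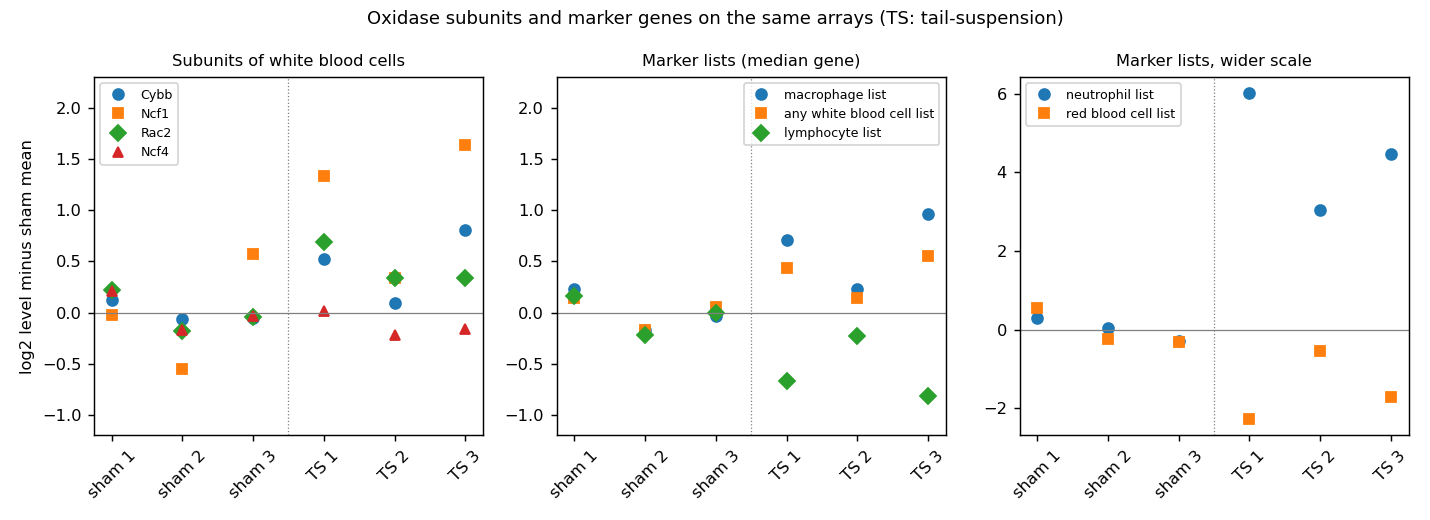
Each array's log2 level minus the sham mean, for Cybb, Ncf1, Rac2 and Ncf4 (left) and for the median gene of marker lists (middle, and right on a wider axis). Cybb, Ncf1, the macrophage list and the white blood cell list share the order of replicates 3, 1 and 2 among the tail-suspension arrays (TS), whereas the neutrophil list is highest in replicate 1 and the lymphocyte and red blood cell lists lie below 0 in all 3. The fibroblast list, not drawn here, has the order 3, 1 and 2 as well.

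Among 144 other genes of the marker and pathway lists with a tested probe, those whose levels over the 6 arrays were most like those of Cybb were Itgb2, the beta 2 integrin chain of white blood cells (Pearson r = 0.986), and the complement genes C1qc (0.972) and C1qb (0.971). Those most like Nox4 were Gpx3, a secreted glutathione peroxidase (r = 0.960), Cd14, the endotoxin co-receptor (0.945), and Mertk (0.938). The 6 points of each correlation share the arrays and the division into groups. None of Itgb2, C1qc and C1qb passed, with differences of 0.69, 0.70 and 0.62 (adjusted p = 0.0954, 0.0777 and 0.0707 by limma). Cd14 differed by 0.60 and did not pass either (adjusted p = 0.0597 by limma).

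The other cells of the heart were read from further marker lists. Of 8 endothelial genes, 4 fell (Cldn5, Emcn, Kdr and Tie1) and Vwf rose by 0.99 (adjusted p = 0.00284 by limma), with a median of -0.36 for the list. Of 8 fibroblast genes, Col3a1 fell by 1.88 (adjusted p = 0.0177 by limma), with a median of -0.41. Of 5 smooth muscle genes, 0 passed (median 0.36). Of 10 cardiomyocyte genes read from their brightest probe, 1 passed, Actc1 at -0.33 (adjusted p = 0.0364 by limma), with a median of -0.12. Dimmer probes of Myh6 and Atp2a2 passed as well, at -1.47 and -0.64 (adjusted p = 0.0096 and 0.0369 by limma), whereas their brightest probes differed by -0.091 and -0.29 and did not. Of 6 red blood cell genes, 4 were tested and 0 passed, with a median of -1.52. With each array left out in turn, 4 of the 10 marker genes that rose over all lists (Retnlg, S100a8, S100a9 and Vwf) stayed past the threshold.

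The genes around the oxidase were described with 7 lists, from the other proteins of the complex to the enzymes that remove its products. Of 90 genes, 77 were tested, 12 rose, 7 fell and 58 did not pass, with a median of -0.036. Over all 20674 genes tested by their brightest probe, where 10.5% rose and 9.8% fell, the median was -0.0076. The number that rose was 7 without sham replicate 2 and 7 without tail-suspension replicate 3. The genes that stayed past the threshold with each array left out were 7 of the 12 that rose (Xdh, Gpx3, Mpo, Gstm1, Prkcd, Prkcz and Bcr) and 4 of the 7 that fell (Nos2, Glrx, Mas1 and Tiam1). Mpo entered the test through its tail-suspension arrays alone.

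Of 13 other genes of the oxidase family, 7 were tested. Noxa1, an activator of NOX1, was the 1 gene that passed and was lower by 0.42 (adjusted p = 0.0453 by limma), near background, with 3 sham arrays and 1 tail-suspension array well above it. Its call held only without tail-suspension replicate 1 among the arrays left out. Noxo1, an organiser of NOX1, differed by 0.33 (adjusted p = 0.0901 by limma), and Poldip2, a partner of NOX4, by -0.37 (adjusted p = 0.0890 by limma). Cybc1, a chaperone that NOX2 and p22phox need, differed by 0.0054 (adjusted p = 0.969 by limma).

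Among 14 kinases and phosphatases that act on p47phox, 12 were tested, 2 rose and 1 fell. Prkcd, the gene of protein kinase C delta, read 0.60, 0.64 and 0.53 on the log2 scale in sham and 1.16, 1.26 and 1.34 in tail-suspended hearts. The groups were apart, and the difference of 0.66 had a standard error of 0.088 (adjusted p = 0.00674 by limma). Its second probe rose by 0.61 (adjusted p = 0.0152 by limma). Prkcz, an atypical protein kinase C, rose by 1.06 (adjusted p = 0.0106 by limma), whereas its other probes differed by 0.62 and 0.86 and did not pass (adjusted p = 0.0743 and 0.0691 by limma). Mapk14, the gene of p38 alpha, fell by 0.60 (adjusted p = 0.0121 by limma), a call that ended without sham replicate 2 (0.0511), and its other probe differed by -0.40 (adjusted p = 0.0622 by limma). Dimmer probes of Ppp2ca and Prkca passed at 0.63 and -0.64 (adjusted p = 0.0144 and 0.00643 by limma), whereas the brightest probes of these genes did not.

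Among 15 genes that switch Rac on or off, all tested, 2 rose and 1 fell. A dimmer probe of Vav1, a Rac exchange factor of blood cells, passed as well, at 0.88 (adjusted p = 0.0226 by limma), whereas its brightest probe differed by 0.40 (adjusted p = 0.284 by limma). Bcr, a Rac GTPase-activating protein, rose by 0.67 (adjusted p = 0.00791 by limma), and Tiam1, another exchange factor, fell by 0.61 (adjusted p = 0.0142 by limma). Arhgdig, an inhibitor of GDP dissociation, rose by 0.97 (adjusted p = 0.0189 by limma). A second Arhgdig probe differed by 0.62 (adjusted p = 0.0777 by limma), and the call held only without tail-suspension replicate 2 among the arrays left out, at adjusted p values of up to 0.0564.

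Of 11 other enzymes that can make oxidants, 9 were tested, 3 rose and 2 fell. Xdh, the gene of xanthine oxidoreductase, stood at 2.11, 1.88 and 1.88 in sham and 3.30, 3.39 and 3.38 in tail-suspended hearts. This difference of 1.40 had a standard error of 0.099 (adjusted p = 0.00177 by limma) and was above the fitted difference of every oxidase subunit tested, a gap that was not itself tested. Nos2, the inducible nitric oxide synthase, fell by 1.39 with a standard error of 0.16 (adjusted p = 0.00461 by limma). Alox5 fell by 0.92 and Ptgs1 rose by 0.67 (adjusted p = 0.0224 and 0.0283 by limma). Both of these calls ended without sham replicate 1 (0.0705 and 0.0621), tail-suspension replicate 1 (0.0651 and 0.0781) or tail-suspension replicate 3 (0.0671 and 0.0888), and that of Alox5 without sham replicate 3 (0.0585) and of Ptgs1 without sham replicate 2 (0.0801). Mpo, the myeloperoxidase of neutrophils, was well above background on no sham array and was at least 2.20-fold higher in tail-suspension (adjusted p = 0.00283 by limma). It entered the test through its tail-suspension arrays alone, so this p-value is not independent support for a rise.

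Enzymes that remove superoxide and peroxide mostly did not pass, with 1 gene up and 1 down of 18. Gpx3 stood at 3.63, 3.52 and 3.55 in sham and 4.81, 4.66 and 5.15 in tail-suspended hearts, a rise of 1.31 with a standard error of 0.14 (adjusted p = 0.00333 by limma). Glrx, the gene of glutaredoxin, fell by 1.07 with a standard error of 0.14 (adjusted p = 0.00692 by limma). The remaining 16, the superoxide dismutases and catalase among them, did not pass, and the median of the list was -0.14.

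Genes driven by Nrf2, the transcription factor released by oxidants, had differences mostly above 0, with 9 of 10 tested, 3 up, 0 down, 8 above 0 and a median of 0.46. Gstm1, a glutathione transferase, rose by 0.72 (adjusted p = 0.00459 by limma) and by 0.91 on its second probe (adjusted p = 0.00284 by limma). Hmox1, the gene of heme oxygenase, rose by 0.90 (adjusted p = 0.0223 by limma), whereas its other probe differed by 0.22 (adjusted p = 0.157 by limma). Gclc, a subunit of the enzyme that starts glutathione synthesis, rose by 0.46 (adjusted p = 0.0190 by limma). The calls for Hmox1 and Gclc ended without sham replicate 1 (0.0575 and 0.0626), sham replicate 2 (0.0675 and 0.0772) or tail-suspension replicate 3 (0.0739 and 0.0685).

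**Figure D5:**
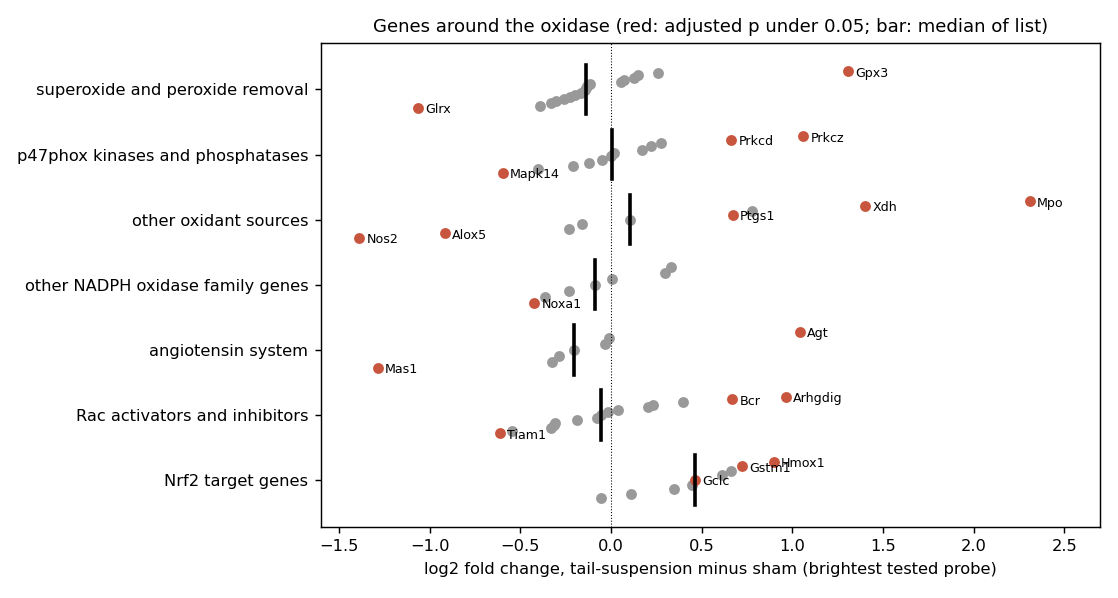
Difference (tail-suspension minus sham, log2 scale) of each tested gene of 7 lists around the oxidase, read from its brightest tested probe, with genes past an adjusted p of 0.05 (limma) in red and the median of each list as a bar. Medians lie between -0.21 for the angiotensin system and 0.46 for the Nrf2 target genes; Mpo was not above background in sham, so that only a lower bound of its fold is known.

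The study's question turned on angiotensin II, a hormone that activates the oxidase through its type 1 receptor. Of 9 genes of the angiotensin system, 7 were tested. Agt, the gene of the precursor angiotensinogen, rose by 1.04 with a standard error of 0.20 (adjusted p = 0.0189 by limma), a call that ended without sham replicate 2 (0.0663), tail-suspension replicate 1 (0.0564) or tail-suspension replicate 3 (0.0586). Mas1, the receptor of angiotensin 1-7, fell by 1.29 (adjusted p = 0.0138 by limma), although its other probe differed by -0.16 and did not pass (adjusted p = 0.783 by limma). Agtr1a, the type 1 receptor, differed by -0.33 and did not pass (adjusted p = 0.0971 by limma).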

How the data were processed

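Total RNA of 3 sham and 3 tail-suspended hearts was labelled with Cy3 and hybridised to 1-colour Agilent arrays. The authors deposited the scanner output, in which Agilent Feature Extraction 10.7.1.1 gives each spot a processed intensity after background correction, and a table of log2 values whose columns were quantile normalized. The methods name no array normalization.

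Processed intensities were put on the log2 scale in R 4.3.3, and the 75th percentile over the spots of an array that were not controls was subtracted. Outlier spots (146 to 212 per array) were dropped, and the remaining spots of a probe were averaged. The flag of a signal well above background was given to a probe if 50% or more of its spots had it, and a probe entered the test if this was so on every array of at least 1 group. The test of tail-suspension against sham was that of limma 3.58.1 (lmFit and eBayes, no covariates, all 6 arrays), adjusted by Benjamini-Hochberg over all tested probes, with a threshold of 0.05. For list genes the brightest tested probe was used. A bound ("at least") sets the brighter group's mean against the mean, per array, of the higher of the probe's signal and the lowest signal well above background.

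The members and lists were chosen with earlier results of these data known. All members are named, and of each list the genes past the threshold, Agtr1a and other proteins of the complex. Some genes of the lists are not reported here by name. Poldip2, Noxo1 and Cybc1 belong to the latter. Of 169 list genes, 168 had a name on the array. Simulated data tested the steps for tail-suspension against sham on 28003 probes: of the probes changed by 1 and by 2 on the log2 scale, 58% and 91% were called. Far fewer probes were changed in the simulation than were called in these data (20.4% of those tested). The adjustment was therefore stricter there, and these shares are not the share of real changes found here. Same-numbered replicates share only a number. The alternatives are given with their effect in the closing section. The slide could not serve as a block because all arrays lay on 1 slide.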

Additional observations from a re-analysis of the deposited data

How the results depend on the processing

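Over 18 alternatives the count of subunit probes that rose (1 as reported) was 0 under normexp, without the filter on dim probes, by the methods' t-test and with the slide row as a block. It was 4 with array weights and 2 with the replicate block, and ranged from 0 (without any 1 of the sham arrays) to 3 (without tail-suspension replicate 2) when single arrays were dropped. The count that fell was 0 throughout. Nox4 did not pass under normexp (0.29, adjusted p = 0.192), without the filter (1.13, 0.0723), by the methods' t-test (1.13, 0.0845) or with the slide row as a block (0.92, 0.207), and ranged from 0.85 to 1.30 with each array left out. With array weights Cybb (0.58, adjusted p = 0.0291), Ncf1 (1.50, 0.0187) and Rac2 (0.52, 0.0424) passed, and with the replicate block Ncf1 did (1.10, 0.0190). Left-out arrays gave 0.31 to 0.67 for Cybb, 0.83 to 1.48 for Ncf1, -0.089 to 0.021 for the Rac1 probe at base 836, and 7 to 13 genes of the pathway lists that rose. That Rac1 probe turned to 0.045 under normexp, and to 0.0076, 0.021 and 0.011 without sham replicate 1, tail-suspension replicate 1 and tail-suspension replicate 3, and Ncf4 turned to 0.019 with the row block. The cause was not tested.

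Same-numbered replicates deviated together with correlations of -0.020, -0.018 and 0.050, so the numbers were not taken to pair the samples. With the replicate block, 1714 probes were higher and 1403 lower over the whole array, against 3023 and 2683 without it, and Nox4 still passed (adjusted p = 0.0305 by limma). The number of probes called over the whole array ranged from 320 higher and 177 lower with the row block to 4465 and 4355 with array weights. The largest shift of the median of all tested probes under another scaling was -0.062, under normexp. Nox1 and the Nox4 probe at base 1077 were too near background to be tested.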
